A study of Drosophila melanogaster with 9 samples.

Results

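Small nuclear RNA (snRNA) and small nucleolar RNA (snoRNA) genes were examined in sequencing data of polyadenylated RNA from hand-sorted Drosophila embryos at stage 5. The genes were chosen by name and by level. They were the rows of the deposited expression table whose identifiers carry a symbol that starts with snRNA: or snoRNA:, and whose level was at least 1 RPKM (reads per kilobase of gene, scaled to the depth of the library) in at least 3 of the 9 libraries. This gave 119 of the 274 snRNA and snoRNA genes in a table of 15682 genes, of which 21 (of 31) were snRNA genes and 98 (of 243) were snoRNA genes. The levels themselves chose the genes, so a gene could enter through the libraries of 1 genotype alone: 27 snoRNA genes reached 1 RPKM in the 3 oreR libraries and in no other, 1 snRNA gene and 3 snoRNA genes did so only in ataxin-7-labelled libraries, and 2 snRNA genes only in non-stop.

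There were 3 biological replicates of each of 3 genotypes. The labels call them non-stop (experiment 1190), ataxin-7 (experiment 1013) and oreR (experiment 1013), the last being the wild-type strain Oregon-R. Every group came from 2 h collections that were then kept for 1 h at 25 °C. The alleles behind the first 2 names are not given in the sources used here, and for ataxin-7 the genotype tag departs from the title in replicates 2 and 3, where the titles were followed. Non-stop and Ataxin-7 are subunits of the deubiquitinase module of SAGA, a co-activator complex that acts on histones at promoters. Because non-stop carries another experiment number than the other groups, genotype and experiment cannot be told apart in any comparison that involves it.

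As background, snRNAs are the RNA parts of the spliceosome. Each is made as an independent transcript, and in RNA-protein particles they recognise the ends of introns and join the exons. SnoRNAs guide the modification of ribosomal RNA: those with boxes C and D direct methylation of the ribose, and those with boxes H and ACA direct the conversion of uridine to pseudouridine. In Drosophila most snoRNAs are cut out of the introns of host genes, many of which encode ribosomal proteins, whereas the noncoding Uhg (U snoRNA host gene) transcripts are best known for the snoRNAs they carry. Mature snRNAs and snoRNAs have no poly(A) tail, so libraries made from polyadenylated RNA hold few of them and can also hold longer transcripts that pass over the same positions.

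In the BDGP6 annotation, 83 of the 98 snoRNA genes lay in an intron of a host gene on the same strand, 10 overlapped an exon of a host transcript, and 5 lay outside other genes (3 U3 genes, snoRNA:185 and snoRNA:Psi18S-301). By symbol, 59 were of the C/D type, 33 were of the H/ACA type and 6 could not be classed. Of the snRNA genes, 10 lay outside other genes, 7 lay in an intron of a host on the same strand and 4 lay opposite a gene on the other strand. The 100 hosted genes had 43 hosts, of which 39 were in the table. Members were short, from 55 to 275 bases with a median of 110.0. The snRNA genes lay on arms 2L (10), 3R (7), 3L (2) and X (2), and 44 of the 98 snoRNA genes lay on 2R. The sequencing kit kept the strand, but how the reads were counted is not given in the sources used here, so reads from a host or from a gene on the other strand cannot be told apart from reads of the small RNA.

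In units of 1 M reads, the libraries held from 37.5 to 39.9 in genes in non-stop, from 76.5 to 83.8 in ataxin-7-labelled libraries and from 78.2 to 92.2 in oreR. Members took between 0.00401% and 0.00870% of these, or 1522 to 1639 reads per library in non-stop, 5567 to 6939 in ataxin-7-labelled libraries and 3639 to 4407 in oreR. For 100 bases, 3 reads amounted to 0.730 to 0.767 RPKM in non-stop and to 0.341 to 0.402 RPKM elsewhere, so that many single genes in non-stop rest on a handful of reads. The gene not, which encodes Non-stop, had 0.608, 0.662 and 1.11 RPKM in non-stop against 52.3, 53.5 and 56.7 in oreR (log2 fold change of -4.95, BH-adjusted p of 9.32e-07 by limma). Atxn7 had 21.9, 25.5 and 28 RPKM in ataxin-7-labelled libraries against 18, 19.1 and 19.8 in oreR, so the RNA of the targeted gene was not lower there and these libraries are named by their label. Markers of embryo stage also moved with the groups. Summed over 25 early zygotic genes, the level was 406 to 469 RPKM in non-stop, 589.5, 1699.8 and 2567 RPKM in ataxin-7-labelled libraries, and 3707 to 3981 RPKM in oreR. Over 14 maternal genes it was 2458 to 2517, then 2604, 1400.0 and 1289, and 633 to 944 RPKM in the same order of groups. Replicate 1 of ataxin-7-labelled libraries therefore stood apart from replicates 2 and 3, and the part of embryo stage in the results on snRNAs and snoRNAs was not tested. In RNA from whole embryos, fewer cells that make an RNA and less of it per cell cannot be told apart.

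The RNA classes did not move together. To avoid the choice by level, all 274 genes were first summed in every library. The 31 snRNA genes summed to 132, 146 and 131 RPKM in non-stop, to 253, 196 and 182 RPKM in ataxin-7-labelled libraries, and to 54.5, 59.9 and 69.8 RPKM in oreR. The 5 U1 genes carried most of the non-stop sum, with a mean of 86.9 of 136 RPKM. They held 45.9 of 210 RPKM in ataxin-7-labelled libraries and 13.6 of 61.4 RPKM in oreR, so the higher snRNA sum in non-stop was largely that of U1. The 13 snoRNA genes outside hosts also had their lowest sum in oreR. It was 81.4, 83.5 and 71.9 RPKM in non-stop, 237, 179 and 171 RPKM in ataxin-7-labelled libraries, and 27.9, 37.3 and 30.0 RPKM in oreR. The U3 genes and snoRNA:185 carried that sum, with 96.0% of it in non-stop, 97.4% in ataxin-7-labelled libraries and 79.4% in oreR. The 9 others summed to 3.1 RPKM in non-stop and 5.03 RPKM in ataxin-7-labelled libraries, against 6.53 RPKM in oreR. The 230 snoRNA genes inside hosts went the other way. Their sum was 100.9, 112 and 112 RPKM in non-stop and 136, 168 and 231 RPKM in ataxin-7-labelled libraries, against 517.5, 430.3 and 389 RPKM in oreR. In each of the 3 classes, every library of both other genotypes lay on 1 side of all oreR libraries. Mean sums were 2.22-fold higher in non-stop and 3.42-fold higher in ataxin-7-labelled libraries than in oreR for snRNAs, 2.49-fold and 6.16-fold higher for snoRNAs outside hosts, and 4.11-fold and 2.50-fold lower for hosted snoRNAs.

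**Figure D1:**
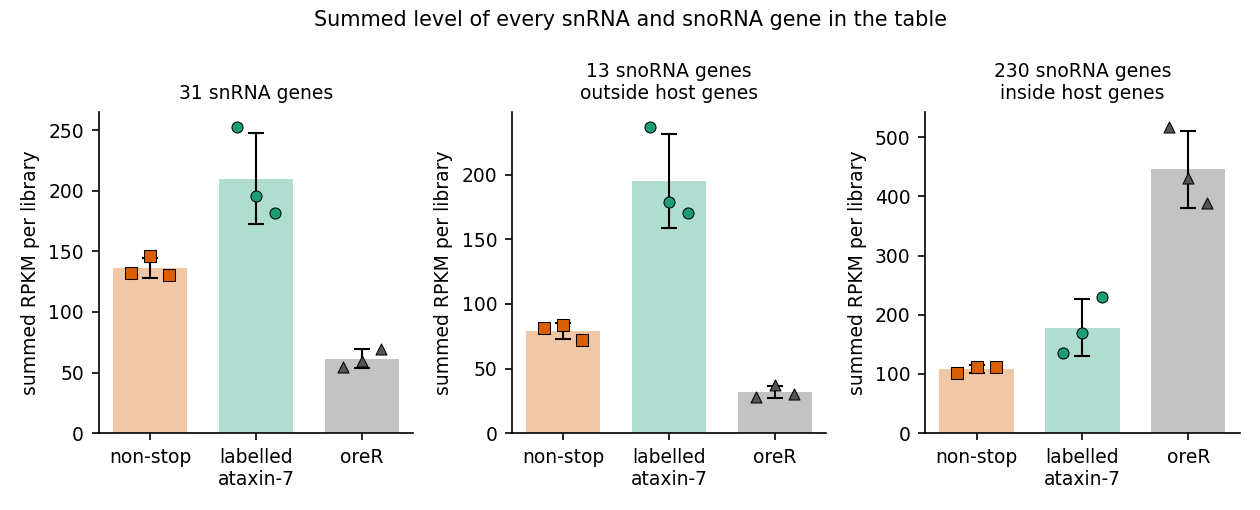
Summed level (RPKM, y axis from 0) of all snRNA genes, all snoRNA genes outside hosts and all snoRNA genes inside hosts of the table, for non-stop, ataxin-7-labelled libraries and oreR. Points are libraries, bars are means and error bars are SDs (n = 3). The first 2 classes are lowest in oreR (54.5 to 69.8 and 27.9 to 37.3 RPKM), and hosted snoRNAs are highest in oreR (389 to 517.5 RPKM).

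Differences of single genes were tested with limma on log2(RPKM + 1) over every gene that reached 1 RPKM in at least 3 of the 6 libraries compared, with Benjamini-Hochberg (BH) adjustment over all of them, and genes with an adjusted p under 0.05 counted as called. Fold changes on this scale understate the change of low genes. The p-values measure the spread between embryo collections of 1 genotype. The share of all genes called was 82.7% in non-stop against oreR (47.7% higher and 35.1% lower) and 32.4% in ataxin-7-labelled libraries against oreR (16.0% higher and 16.4% lower).

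Against these shares, 96 of the 109 members tested were called in non-stop against oreR, 15 higher and 81 lower, and 84 of the 115 tested were called in ataxin-7-labelled libraries against oreR, 20 higher and 64 lower. In both comparisons the values of every called member did not overlap between the groups. The filter fixed this for members that reached 1 RPKM in only 1 of the groups compared. The share of all genes without overlap was not counted, so this is no trait of the members. In non-stop, 10 of 18 snRNA genes were higher and 3 were lower, 3 of 4 snoRNA genes outside hosts were higher and 1 was lower, and 2 of 87 hosted snoRNA genes were higher and 77 lower. In ataxin-7-labelled libraries, 13 of 18 snRNA genes, 4 of 5 snoRNA genes outside hosts and 3 of 92 hosted snoRNA genes were higher, and the 64 lower genes were all hosted snoRNAs. The median log2 fold change of the tested hosted snoRNAs was -1.49 in non-stop, or -1.39 with the 13 that had 0 reads in all non-stop libraries set at 3 reads per library, and -1.04 in ataxin-7-labelled libraries. Over all genes tested the medians were 0.17 and 0.05.

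These counts rested on single libraries in part. The 84 calls became 83 without replicate 1 of ataxin-7-labelled libraries, 28 without their replicate 2, and 12, 12 and 46 without oreR replicates 1, 2 and 3. The share of all genes called was 51.4% and 8.53% without ataxin-7 replicates 1 and 2, and 4.53%, 2.93% and 26.1% without oreR replicates 1, 2 and 3. In non-stop the 96 calls became 28, 29 and 32 without oreR replicates 1, 2 and 3, when only 39, 38 and 37 members still passed the filter on low values. The share of all genes called in non-stop was then 79.7%, 77.2% and 87.2%. No called member changed direction in any of these fits. With no filter on low values, where 61.8% of genes were called in non-stop and 16.7% in ataxin-7-labelled libraries, 12 of 30 snRNA genes were higher and 2 lower and 4 of 224 hosted snoRNA genes were higher and 148 lower in non-stop. In ataxin-7-labelled libraries, 11 of 31 snRNA genes were higher and 0 lower, and 7 of 226 hosted snoRNA genes were higher and 79 lower. Of the 12 snoRNA genes outside hosts in these fits, non-stop had 3 higher and 2 lower. In ataxin-7-labelled libraries 6 of them were higher, and the other 6 had fold changes below 0 that were not called.

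**Figure D2:**
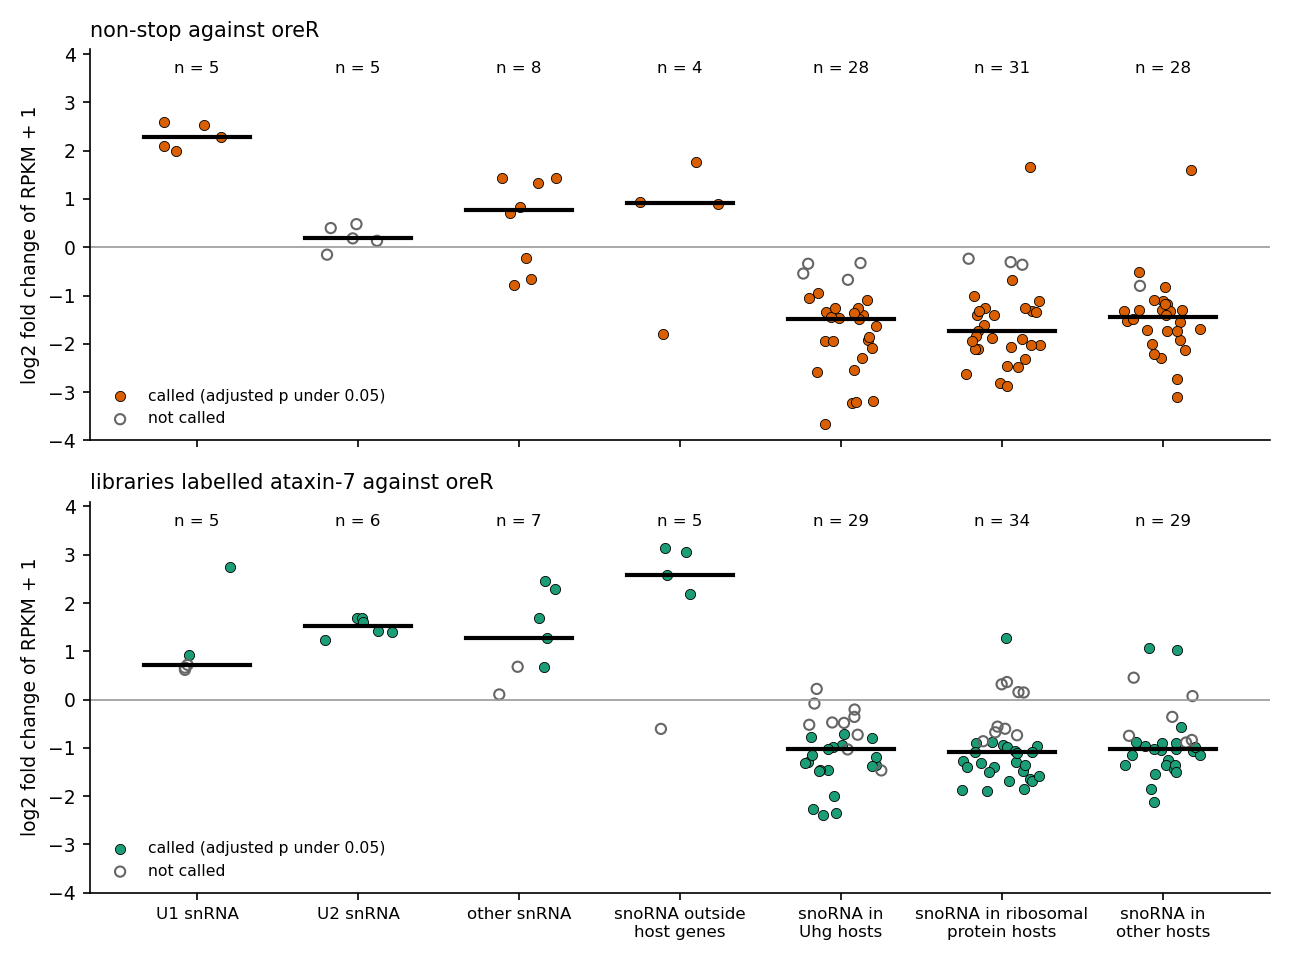
Log2 fold change of RPKM + 1 (y axis) of each tested member by class (x axis), in non-stop against oreR (top) and in ataxin-7-labelled libraries against oreR (bottom). Filled points were called at an adjusted p under 0.05, open points were not, horizontal bars are medians and n is the number of genes tested. U1 genes lie highest among the snRNAs in non-stop (median 2.28) while all U2 genes are called in the lower panel (median 1.52), and hosted snoRNAs lie mostly below 0 in both.

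U1 snRNA pairs with the start of an intron and opens the assembly of the spliceosome. Its 5 member genes are near-identical copies, so the division of reads among them is uncertain and their sum is given first. It was 83.3, 96.7 and 80.8 RPKM in non-stop and 66.5, 37.8 and 33.4 RPKM in ataxin-7-labelled libraries, against 10.9, 15.1 and 14.9 RPKM in oreR. In non-stop all 5 copies were called higher, with log2 fold changes from 1.98 to 2.60. The gene snRNA:U1:21D (arm 2L, 901491 to 901654) had 18.1, 21.7 and 21.2 RPKM in non-stop, 7.01, 4.5 and 3.41 RPKM in ataxin-7-labelled libraries and 1.56, 2.9 and 3.35 RPKM in oreR. Its log2 fold change was 2.60 (SE 0.20) in non-stop, where the BH-adjusted p of limma was 2.3e-05, and 0.72 (SE 0.31) in ataxin-7-labelled libraries, where it was not called (adjusted p of 0.123).

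Among the U1 copies, snRNA:U1:82Eb (arm 3R, 4947933 to 4948096) had the other order of levels. It had 12.9, 13.6 and 13.2 RPKM in non-stop and 37.1, 18.4 and 18 RPKM in ataxin-7-labelled libraries, against 2.03, 2.9 and 2.94 RPKM in oreR. Both groups lay above all oreR values, with log2 fold changes of 1.98 in non-stop (SE 0.12, adjusted p of 9.66e-06) and 2.74 in ataxin-7-labelled libraries (SE 0.31, adjusted p of 0.00406). The copy snRNA:U1:95Ca (arm 3R, 23859467 to 23859630) had 17.7, 22.9 and 14 RPKM in non-stop, 9.45, 5.54 and 4.87 in ataxin-7-labelled libraries and 2.42, 2.69 and 3.6 in oreR, and was called in both (log2 fold changes of 2.28 and 0.93). The copies snRNA:U1:95Cb and snRNA:U1:95Cc lie in an intron of CG34355, which was at 0.21 RPKM in non-stop, 0.0936 in ataxin-7-labelled libraries and 0.105 in oreR. They reached 19 ± 0.554 and 16.2 ± 2.6 RPKM in non-stop, 4.44 ± 1.47 and 5.41 ± 1.53 in ataxin-7-labelled libraries, and 2.49 ± 0.486 and 3.0 ± 0.654 in oreR (SD, n = 3). Their level was between 2378% and 9041% of that of the gene around them in the 3 groups.

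U2 snRNA pairs with the branch point of the intron, and it behaved differently from U1. The 6 member copies, also near-identical, summed to 8.38, 9.87 and 8.52 RPKM in non-stop and to 41.8, 28.6 and 23.5 RPKM in ataxin-7-labelled libraries, against 6.94, 5.57 and 7.83 RPKM in oreR. In ataxin-7-labelled libraries all 6 copies were called higher, with log2 fold changes from 1.23 to 1.70. In non-stop limma called 0 of the 5 tested copies (0 at an unadjusted p under 0.05 and 0 by limma-voom on read counts), and their log2 fold changes lay between -0.15 and 0.48. The copy snRNA:U2:38ABa (arm 2L, 19815614 to 19815805), which lies opposite sick, had 1.39, 1.47 and 1.6 RPKM in non-stop, 7.16, 5.98 and 4.85 RPKM in ataxin-7-labelled libraries and 1.47, 1.03 and 1.33 RPKM in oreR. Its log2 fold change was 1.61 in ataxin-7-labelled libraries (SE 0.21, BH-adjusted p of 0.00542 by limma). It was 0.13 in non-stop (SE 0.10, adjusted p of 0.243), where the non-stop and oreR values overlapped.

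The remaining U2 copies had similar levels. In ataxin-7-labelled libraries the means were 5.19 ± 1.66 RPKM for snRNA:U2:14B, 3.1 ± 1.53 for snRNA:U2:34ABa, 6.44 ± 2.04 for snRNA:U2:34ABb, 4.45 ± 1.71 for snRNA:U2:34ABc and 6.13 ± 1.56 for snRNA:U2:38ABb (SD, n = 3). The means of the same 5 copies lay between 0.684 and 1.63 RPKM in oreR. The host of snRNA:U2:38ABb, sick, was at 0.0183, 0.0901 and 0.249 RPKM in non-stop, ataxin-7-labelled libraries and oreR.

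U4, U5 and U6 join the spliceosome together, and U6 takes part in the chemistry of splicing. Summed over the genes of each, their levels were lower than that of U1 in every group. The 3 member U5 genes did not share a pattern: snRNA:U5:23D (arm 2L, 3048701 to 3048831) was higher in both groups, and the other U5 genes reached 1 RPKM in non-stop only. The gene snRNA:U5:23D had 2.79, 3.32 and 4.09 RPKM in non-stop and 11.6, 6.33 and 6.71 RPKM in ataxin-7-labelled libraries, against 0.684, 0.797 and 0.409 RPKM in oreR (log2 fold changes of 1.43 with an SE of 0.14, adjusted p of 7.31e-05, and 2.46 with an SE of 0.27, adjusted p of 0.0034). The gene snRNA:U5:34A (arm 2L, 13244848 to 13244974) had 3.07, 3.02 and 2.21 RPKM in non-stop, 0.0985, 0.0894 and 0.21 RPKM in ataxin-7-labelled libraries and 0.202, 0.548 and 0.422 RPKM in oreR. In reads these were 16, 15 and 11 in non-stop, 1, 1 and 2 in ataxin-7-labelled libraries and 2, 6 and 4 in oreR. The gene snRNA:U5:14B had 1.99, 2.56 and 1.39 RPKM in non-stop, 0.568, 0.207 and 0.363 in ataxin-7-labelled libraries and 0.233, 0.316 and 0 in oreR. Non-stop values of both lay above all others, which the choice by level fixed, as both reached 1 RPKM in non-stop only. Both were called in non-stop against oreR (log2 fold changes of 1.44 and 1.32), in a direction that was fixed in the same way.

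The U6 genes, which unlike the others are transcribed by RNA polymerase III, were low in all groups. The gene snRNA:U6:96Ab had 0.455, 1.2 and 0.954 RPKM in non-stop, 2.22, 1.59 and 2.61 RPKM in ataxin-7-labelled libraries and 2.39, 1.84 and 1.5 RPKM in oreR, and was lower in non-stop (log2 fold change of -0.65 with an SE of 0.18, adjusted p of 0.0119 by limma). Its log2 fold change was 0.11 with the ataxin-7 label (adjusted p of 0.726). The gene snRNA:U6:96Ac reached 1 RPKM only in ataxin-7-labelled libraries, with 0.683, 0.717 and 0.239 RPKM in non-stop, 1.75, 1.38 and 1.12 in ataxin-7-labelled libraries and 0.479, 0.217 and 0.877 in oreR, and was not called there (adjusted p of 0.0524). The gene snRNA:U4:38AB had 0.171, 0 and 1.26 RPKM in non-stop, 1.14, 0.72 and 1.31 in ataxin-7-labelled libraries and 0.18, 0.327 and 0 in oreR. It passed the filter in neither comparison with oreR.

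A separate minor spliceosome removes a small class of introns, with U11 and U12 in the places of U1 and U2 and U4atac in the place of U4. U12 had the highest mean level of the snRNA genes over the 9 libraries. It had 18.1, 15.2 and 15.9 RPKM in non-stop and 99.5, 95.2 and 88.9 RPKM in ataxin-7-labelled libraries, against 25.4, 27.9 and 33.4 RPKM in oreR. It was therefore lower in non-stop than in oreR, with a log2 fold change of -0.78 (SE 0.11, BH-adjusted limma p of 0.000533), and higher in ataxin-7-labelled libraries, with 1.68 (SE 0.12, adjusted p of 0.00103). The 3 groups did not overlap. The gene snRNA:U12 (arm 3L, 16653769 to 16654006) lies opposite Baldspot, which encodes a fatty acid elongase. Baldspot had 13.5, 13.7 and 13.8 RPKM in non-stop, 6.32, 5.59 and 5.34 RPKM in ataxin-7-labelled libraries and 2.16, 2.88 and 3.88 RPKM in oreR. The order of its levels was not that of U12, and whether reads of Baldspot were counted to U12 was not tested.

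U4atac (arm 3R, 5195004 to 5195163) followed U12 at a lower level. It had 1.52, 1.6 and 1.6 RPKM in non-stop and 3.52, 4.12 and 3.91 RPKM in ataxin-7-labelled libraries, against 1.92, 1.88 and 2.26 RPKM in oreR, with log2 fold changes of -0.23 (SE 0.08, adjusted p of 0.0374) and 0.68 (SE 0.17, adjusted p of 0.0274). It lies in an intron of cno, which was at 16 ± 1.04 RPKM in non-stop, 12.9 ± 1.38 in ataxin-7-labelled libraries and 13.5 ± 1.31 in oreR (SD, n = 3), so the level of the host was above that of U4atac in every group. U11 (arm 3L, 3893056 to 3893330) was higher in both, with 7.97, 7.07 and 7.89 RPKM in non-stop, 13.2, 10.4 and 9.2 RPKM in ataxin-7-labelled libraries and 3.68, 2.82 and 5.41 RPKM in oreR (log2 fold changes of 0.83 and 1.28). The gene opposite U11, Fie, was under 0.06 RPKM in every library. The last snRNA gene, snRNA:LU (arm 2L, 3046765 to 3046880), had 1.38, 1.77 and 2.41 RPKM in non-stop and 7.31, 7.36 and 7.87 RPKM in ataxin-7-labelled libraries, against 0.644, 0.875 and 0.674 RPKM in oreR (log2 fold changes of 0.71 with an SE of 0.14 and 2.30 with an SE of 0.17, adjusted p of 0.00255 and 0.00126). It shares its host FASN2, a fatty acid synthase gene, with snRNA:U5:23D, and FASN2 was at 0.101, 0.364 and 0.0345 RPKM in non-stop, ataxin-7-labelled libraries and oreR.

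**Figure D3:**
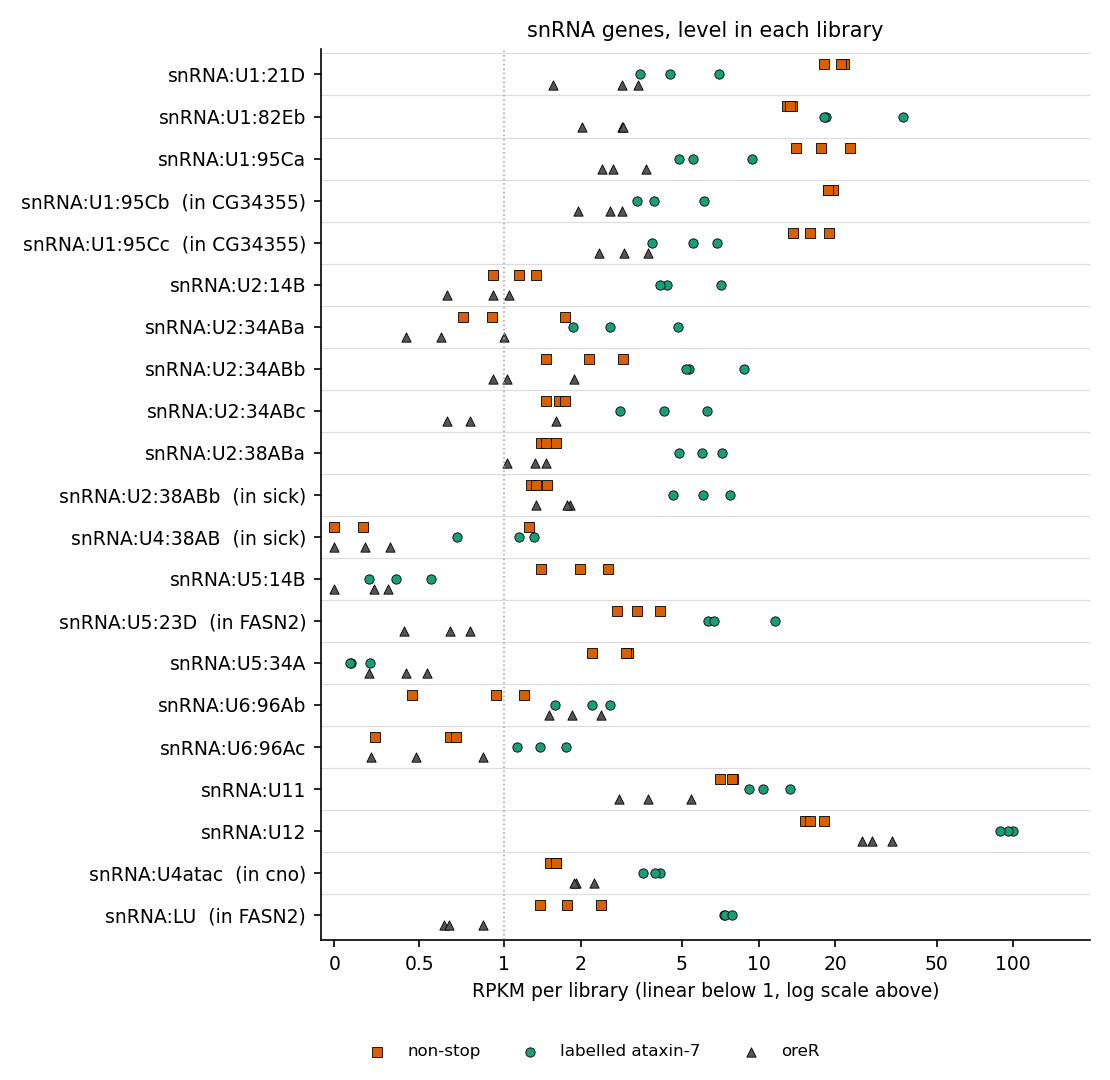
RPKM (x axis, linear below 1 and on a log scale above) of the 21 snRNA genes in every library of non-stop, of ataxin-7-labelled libraries and of oreR, with the host gene in brackets and a dotted line at 1 RPKM. Each point is a library. The 5 U1 genes are highest in non-stop except snRNA:U1:82Eb, the 6 U2 genes are highest in ataxin-7-labelled libraries, and U12 lies at 88.9 to 99.5 RPKM there.

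Among the snoRNAs outside hosts, U3 had the largest rise of any member in ataxin-7-labelled libraries. U3 is a C/D snoRNA that acts in the cutting of the ribosomal RNA precursor and not as a methylation guide. The gene snoRNA:U3:54Aa (arm 2R, 17143521 to 17143730) had 10.6, 9.17 and 8.56 RPKM in non-stop and 54.2, 43.1 and 36.8 RPKM in ataxin-7-labelled libraries, against 4.22, 3.62 and 5.73 RPKM in oreR. Its log2 fold change was 0.93 in non-stop (SE 0.16, adjusted p of 0.00106 by limma) and 3.05 in ataxin-7-labelled libraries (SE 0.21, adjusted p of 0.00106). The copy snoRNA:U3:54Ab (arm 2R, 17145617 to 17145826) had 6.33, 5.91 and 6.49 RPKM in non-stop, 39.2, 33.5 and 27.2 in ataxin-7-labelled libraries and 2.66, 2.41 and 3.64 in oreR, and log2 fold changes of 0.90 and 3.13. The third copy, snoRNA:U3:9B, had 0.29, 0.609 and 0.76 RPKM in non-stop, 7.44, 6.02 and 4.44 in ataxin-7-labelled libraries and 0.457, 0.414 and 0.638 in oreR, and its log2 fold change in ataxin-7-labelled libraries was 2.19. In all 3 copies ataxin-7-labelled libraries lay above all others. The choice by level fixed this for snoRNA:U3:9B, which reached 1 RPKM in those libraries only. For snoRNA:U3:9B non-stop overlapped with oreR, and how reads were divided among the 3 copies is uncertain.

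The snoRNA gene with the highest mean level, snoRNA:185 (arm 2R, 19727098 to 19727152), is also the shortest member. It had 61.1, 64.6 and 52.9 RPKM in non-stop and 132, 90.2 and 96.6 RPKM in ataxin-7-labelled libraries, against 13.5, 24.5 and 13.9 RPKM in oreR, and was higher in both (log2 fold changes of 1.77 with an SE of 0.22, adjusted p of 0.000202, and 2.58 with an SE of 0.26, adjusted p of 0.00266). The fifth gene outside hosts, the H/ACA gene snoRNA:Psi18S-301 (arm 3R, 20574906 to 20575043), did the opposite. It had 0.529, 0.741 and 0.74 RPKM in non-stop and 1.72, 3.95 and 3.09 RPKM in ataxin-7-labelled libraries, against 5.1, 4.62 and 4.66 RPKM in oreR. It was lower in non-stop (log2 fold change of -1.80 with an SE of 0.09, adjusted p of 5.26e-06) and was not called in ataxin-7-labelled libraries (-0.61 with an SE of 0.26, adjusted p of 0.119).

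Most hosted snoRNAs were lower in both groups, in both box types and in all 3 kinds of host. Of the tested C/D genes inside hosts, 47 of 54 were lower and 1 was higher in non-stop, and 38 of 55 were lower and 1 was higher in ataxin-7-labelled libraries. Of the H/ACA genes inside hosts, 26 of 29 were lower and 1 was higher in non-stop, and 22 of 32 were lower and 1 was higher in ataxin-7-labelled libraries. The 27 members that passed through oreR alone had to be lower, and all 27 were called so in both comparisons. Of the other 66 hosted members, 50 of 60 tested were lower and 2 higher in non-stop, and 37 of 65 tested were lower and 3 higher in ataxin-7-labelled libraries. Of the 93 hosted members, 73 stayed below 1 RPKM in every non-stop library and 30 in every library labelled ataxin-7. Any of these that passed the filter against oreR did so through oreR and had to be lower, so the 27 were not the only ones fixed. In non-stop 67 of the 73 were tested and all 67 were called lower. With the ataxin-7 label 29 of the 30 were tested and 28 were called lower. The number with 0 reads was 44, 40 and 36 in the non-stop libraries, 12, 1 and 0 in ataxin-7-labelled libraries, and 0, 1 and 0 in oreR. Only 6 hosted members reached 1 RPKM in all 9 libraries, and of those 2 were lower and 2 higher in non-stop and 2 were lower and 1 higher in ataxin-7-labelled libraries. Without replicate 1 of ataxin-7-labelled libraries, 67 of 90 hosted members were lower and 2 higher, and 11 of 15 snRNA genes were higher, beside 51.4% of all genes called. The number of hosted members lower in ataxin-7-labelled libraries was 18 without their replicate 2, and 2, 3 and 27 without oreR replicates 1, 2 and 3. Without 1 of the oreR libraries, 17 or 18 hosted members were tested in non-stop, of which 10 or 11 were lower. The shares of all genes called in these fits with a library left out are those given above.

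Members inside the Uhg genes, 29 in all, came from 7 noncoding hosts. Their summed level was 9.53, 8.49 and 13.3 RPKM in non-stop and 19.3, 29.3 and 47.3 RPKM in ataxin-7-labelled libraries, against 149, 102 and 98.0 RPKM in oreR, so that every library of both groups was below every oreR library. In non-stop 24 of 28 tested were lower and 0 higher, with a median log2 fold change of -1.48, and in ataxin-7-labelled libraries 19 of 29 were lower and 0 higher, with a median of -1.03. The medians of their hosts, counted once for each tested member, were -1.73 and -1.41. Uhg5, with 10 members, had 1.73, 1.53 and 2.01 RPKM in non-stop and 1.76, 3.31 and 4.81 RPKM in ataxin-7-labelled libraries, against 12.1, 9.49 and 8.38 RPKM in oreR (log2 fold changes of -1.99 with an SE of 0.14 and -1.41 with an SE of 0.31, adjusted p of 1.74e-05 and 0.0203). Uhg1, with 7 members, had 2.96, 3.56 and 3.47, then 3.19, 4.25 and 4.96, then 15.8, 12.8 and 11.7 RPKM in the same groups, with log2 fold changes of -1.73 and -1.50. Uhg4, with 5 members, was lower in non-stop (-0.53, adjusted p of 0.00263) and was not called in ataxin-7-labelled libraries (0.06, adjusted p of 0.847).

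The largest falls of all members were in Uhg5 and Uhg1. The C/D gene snoRNA:Me28S-G2703c (arm 2R, 14624007 to 14624091), named for a methylated guanosine of 28S rRNA, had 0, 0.602 and 0.601 RPKM in non-stop and 0.588, 2.81 and 4.86 RPKM in ataxin-7-labelled libraries, against 21.8, 13.6 and 14.5 RPKM in oreR. In reads these were 0, 2 and 2 in non-stop, 4, 21 and 31 in ataxin-7-labelled libraries and 145, 100 and 92 in oreR. Its log2 fold change was -3.66 in non-stop (SE 0.24, adjusted p of 1.27e-05 by limma) and -2.40 in ataxin-7-labelled libraries (SE 0.49, adjusted p of 0.0165), and neither group overlapped with oreR. Its neighbours in Uhg5 fell alongside it. The copy snoRNA:Me28S-G2703b had 0.28, 0 and 0.293 RPKM in non-stop, 0.287, 1.7 and 2.6 in ataxin-7-labelled libraries and 15.5, 7.6 and 8.78 in oreR, and snoRNA:Or-CD4, an orphan with no rRNA target in its name, had 0.312, 0.328 and 0.327, then 0.801, 1.89 and 4.44, then 13.6, 9.66 and 10.7 RPKM. In oreR the levels of these 3 genes were above that of their host, at 106% to 167% of the mean RPKM of Uhg5. In Uhg1, snoRNA:Me18S-A28a (arm 2R, 17703102 to 17703168) had 0.363, 0 and 0 RPKM in non-stop and 0.933, 1.02 and 0.994 RPKM in ataxin-7-labelled libraries, against 11.1, 7.79 and 8.8 RPKM in oreR (log2 fold changes of -3.19 and -2.35).

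Members inside ribosomal protein genes, 34 in 18 hosts, had a lower median change than their hosts. They summed to 18.3, 24.6 and 24.6 RPKM in non-stop and to 29.4, 42.2 and 63.7 RPKM in ataxin-7-labelled libraries, against 155, 142 and 115 RPKM in oreR. In non-stop 27 of 31 tested were lower and 1 higher, with a median of -1.73, beside a median of -0.70 for the hosts of the 29 with a host tested. In ataxin-7-labelled libraries 24 of 34 were lower and 1 higher, with a median of -1.09 beside 0.01 for their hosts. RpL3, host of 4 members, had 444, 489 and 510.0 RPKM in non-stop and 702, 837 and 871 RPKM in ataxin-7-labelled libraries, against 991, 890.3 and 959.6 RPKM in oreR, and was not called in ataxin-7-labelled libraries (log2 fold change of -0.24, adjusted p of 0.131). Its member snoRNA:Me18S-A425 (arm 3R, 11222841 to 11222924) overlaps an exon of an RpL3 transcript and had 2.61, 2.44 and 2.43 RPKM in non-stop and 3.57, 7.98 and 9.99 RPKM in ataxin-7-labelled libraries, against 26.1, 30.6 and 16.3 RPKM in oreR. Its log2 fold changes were -2.81 (SE 0.21, adjusted p of 2.07e-05) and -1.68 (SE 0.38, adjusted p of 0.0216). In RpL28, snoRNA:Or-CD12 had 0.936, 1.97 and 1.64 RPKM in non-stop and 2.56, 3.79 and 5.8 RPKM in ataxin-7-labelled libraries, against 18.1, 13.8 and 20.3 RPKM in oreR (log2 fold changes of -2.88 and -1.90). In RpS5a, which hosts 6 H/ACA members that were all lower in both, snoRNA:Psi28S-1192c had 0.182, 0 and 0.191 RPKM in non-stop and 0.373, 0.763 and 1.79 RPKM in ataxin-7-labelled libraries, against 6.97, 6.14 and 4.8 RPKM in oreR, while RpS5a was at 72.5, 119.6 and 117 RPKM. The means of these 6 members in non-stop were at most 0.244 RPKM. All were thus below 1 RPKM in every non-stop library, and the filter fixed that they were lower there.

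Most of the 30 members in the 14 remaining hosts were lower too. In non-stop 26 of 28 tested were lower and 1 higher, and in ataxin-7-labelled libraries 21 of 29 were lower and 2 higher. Where the host was tested too, medians were -1.48 for 25 members and -0.71 for their hosts in non-stop, and -1.03 for 26 members and -0.02 for their hosts in ataxin-7-labelled libraries. The members of Hrb98DE, which encodes an RNA-binding protein, were all lower in both (5 of 5). Their means in non-stop were at most 0.241 RPKM. All 5 were thus below 1 RPKM in every non-stop library, and the filter fixed that they were lower there. The host kra had 450.1 RPKM in non-stop and 384 in ataxin-7-labelled libraries against 349.6 in oreR, and 4 of its 5 members were lower in both.

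In some hosts the gene rose and its snoRNAs fell. Nop60B encodes the fly pseudouridine synthase of the H/ACA particles and had 62.4, 61.3 and 60.4 RPKM in non-stop and 56.9, 45.9 and 42.9 RPKM in ataxin-7-labelled libraries, against 30.6, 26.5 and 30.7 RPKM in oreR. It was higher in both (log2 fold changes of 1.05 with an SE of 0.07, adjusted p of 1.14e-05, and 0.70 with an SE of 0.13, adjusted p of 0.0136). All 6 of its members were lower in both, with means in non-stop between 0.103 and 0.898 RPKM. The filter fixed part of this, as a member below 1 RPKM in every library of a group had to be lower there. That held in both groups for snoRNA:Psi18S-1820, and in non-stop for snoRNA:Or-CD9a. The C/D gene snoRNA:Or-CD9a (arm 2R, 24185825 to 24185922) had 0.745, 0.783 and 0.521 RPKM in non-stop and 1.15, 2.32 and 4.08 RPKM in ataxin-7-labelled libraries, against 15.5, 13.7 and 11.4 RPKM in oreR, with log2 fold changes of -3.10 and -2.13. Fib, the methyltransferase of the C/D particles, was higher in ataxin-7-labelled libraries (127 RPKM against 99.8 in oreR, adjusted p of 0.032), while its only member (FBgn0065073, unclassed) had 0.357, 0.73 and 1.71 RPKM there against 3.48, 3.81 and 3.06 in oreR and was lower (log2 fold change of -1.26). In nop5, which encodes another core protein of the C/D particles, both fell: nop5 had 125 RPKM in non-stop and 149.8 in ataxin-7-labelled libraries against 206 in oreR, and snoRNA:nop5-x16-a had 0 reads in all non-stop libraries and 0.248, 0.562 and 1.32 RPKM in ataxin-7-labelled libraries against 4.56, 2.64 and 3.98 in oreR. With 3 reads per library as the limit, its level was at least 4.99-fold lower in non-stop than in oreR.

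Over all hosted snoRNA genes with a host in the table (89), most members were far below their host. The median level was 0.259% of the host's in non-stop, 0.815% in ataxin-7-labelled libraries and 1.81% in oreR, with lengths that for 35 of 39 hosts matched the span with introns to within 10%. Medians were 6.50%, 23.7% and 28.7% in Uhg hosts, and 0.0773%, 0.159% and 0.502% in ribosomal protein hosts, in the same order of groups. Both were tested for 82 pairs in non-stop and 87 in ataxin-7-labelled libraries, of which 26 had a member that passed through oreR alone and so had to be lower. Among the other pairs, the log2 fold change of the member was below that of the host for 46 of 56 in non-stop and for 44 of 61 in ataxin-7-labelled libraries. In Uhg hosts these counts were 15 of 20 and 11 of 21. These other pairs were not all free of the filter in non-stop. There, 67 of the 87 hosted members tested were below 1 RPKM in every non-stop library and so had to be lower. Of the 77 hosted snoRNAs lower in non-stop, the host was lower for 61, higher for 11, not called for 1 and not tested for 4. Of the 64 lower in ataxin-7-labelled libraries, the host was lower for 24, higher for 7, not called for 31 and not tested for 2. Which part of these reads came from host transcripts was not tested.

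**Figure D4:**
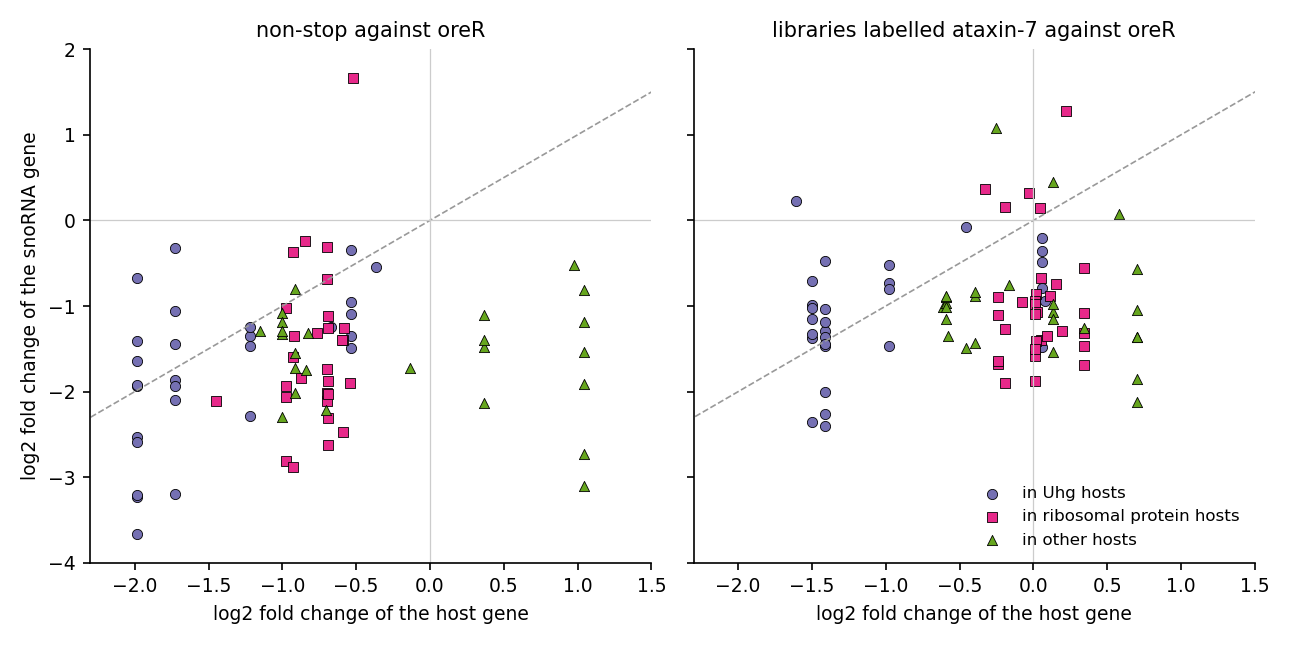
Log2 fold change of each hosted snoRNA gene (y axis) beside that of its host gene (x axis), both of RPKM + 1, in non-stop against oreR (left) and in ataxin-7-labelled libraries against oreR (right). Each point is a snoRNA gene, points in a column share a host, colours and shapes mark the kind of host, and the dashed line marks equal change. Points lie below the line for 67 of 82 genes on the left and for 64 of 87 on the right, among them 21 and 20 of the 26 that passed through oreR alone, and in Uhg hosts on the right for 13 of 29.

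A few hosted members did not fall. The C/D gene snoRNA:Me18S-C1968 (arm 2R, 22197269 to 22197374) had the highest mean level of all hosted members and rose in both groups. It had 50.1, 49.5 and 46 RPKM in non-stop and 35.3, 28.9 and 32.9 RPKM in ataxin-7-labelled libraries, against 11.5, 20.1 and 15.6 RPKM in oreR (log2 fold changes of 1.60 with an SE of 0.18, adjusted p of 0.000122, and 1.03 with an SE of 0.21, adjusted p of 0.0159). Its host Swim had 0.888, 0.892 and 0.826 RPKM in non-stop, 0.702, 0.621 and 0.68 RPKM in ataxin-7-labelled libraries and 0.327, 0.363 and 0.359 RPKM in oreR, so that the level of the member was 5584% of that of the host in non-stop, 4848% in ataxin-7-labelled libraries and 4499% in oreR. The H/ACA gene snoRNA:Or-aca2 (arm X, 7901062 to 7901203), over an exon of a RpS6 transcript, had 6.52, 9.01 and 8.09 RPKM in non-stop and 1.76, 2.08 and 3.84 RPKM in ataxin-7-labelled libraries, against 2.07, 1.06 and 2.36 RPKM in oreR. It was higher in non-stop (log2 fold change of 1.67 with an SE of 0.20, adjusted p of 0.000205), where RpS6 was lower (-0.52), and was not called in ataxin-7-labelled libraries (0.32 with an SE of 0.30, adjusted p of 0.446).

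The members snoRNA:Psi28S-2996, in RpL5, and snoRNA:Dek-a, in the chromatin gene Dek, were higher in ataxin-7-labelled libraries. The first had 3.4, 2.76 and 3.72 RPKM in those libraries against 0.471, 0.682 and 1.18 in oreR (log2 fold change of 1.28 with an SE of 0.21, adjusted p of 0.0109), and 0.537, 0.376 and 0.188 RPKM in non-stop. The second had 1.81, 1.3 and 1.36 RPKM against 0.154, 0 and 0.404 in oreR (1.08 with an SE of 0.19, adjusted p of 0.012), and 0.733, 0 and 0.769 RPKM in non-stop. As snoRNA:Dek-a reached 1 RPKM in ataxin-7-labelled libraries only, the choice by level fixed that it was higher there. A pair of H/ACA genes on other hosts differed. In RpL22, snoRNA:Psi28S-2179 had 1.68, 2.47 and 2.64 RPKM in non-stop and 3.1, 3.37 and 3.21 RPKM in ataxin-7-labelled libraries, against 3.44, 3.12 and 2.03 RPKM in oreR, and was called in neither (adjusted p of 0.256 and 0.612). In lncRNA:CR42491, snoRNA:Psi18S-531 had 1.92, 2.69 and 0.84 RPKM in non-stop and 3.29, 4.86 and 5.26 RPKM in ataxin-7-labelled libraries, against 8.09, 9.92 and 6.53 RPKM in oreR, and was lower in non-stop (-1.74, adjusted p of 0.000633). The unclassed snoRNA:SC35-a, inside the splicing factor gene SC35, had 0.384 ± 0.101 RPKM in non-stop and 0.835 ± 0.0308 in ataxin-7-labelled libraries against 2.47 ± 0.697 in oreR (SD, n = 3) and was lower in both.

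**Figure D5:**
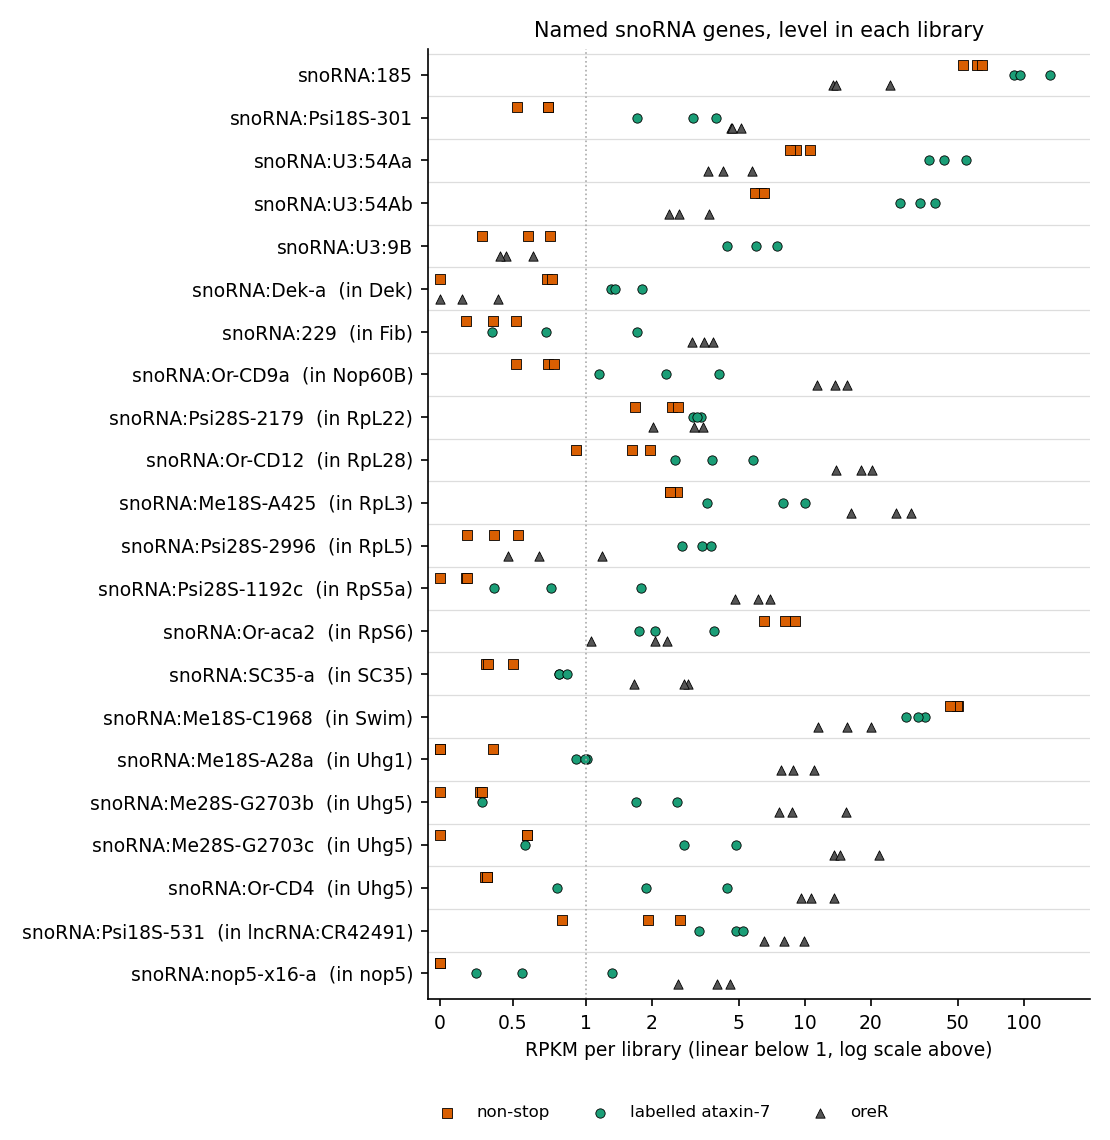
RPKM (x axis, linear below 1 and on a log scale above) of 22 snoRNA genes in every library of non-stop, of ataxin-7-labelled libraries and of oreR, with the host gene in brackets and a dotted line at 1 RPKM. Each point is a library. U3 genes and snoRNA:185 are lowest in oreR or near it, most hosted genes are highest in oreR, and snoRNA:Me18S-C1968 is highest in non-stop (46 to 50.1 RPKM).

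Set directly against ataxin-7-labelled libraries, non-stop had 48 members over the filter, of which 31 were called, 8 higher and 23 lower in non-stop, beside 32.2% of all genes (15.5% higher and 16.7% lower). U1 and U2 moved in opposite directions. Of the 5 U1 genes 4 were higher in non-stop, led by snRNA:U1:95Cb with a log2 fold change of 1.91 (SE 0.21, adjusted p of 0.003 by limma), and of the 6 U2 genes 5 were lower, with a median of -1.35. U12 was lower by the most of any member (-2.46 with an SE of 0.09, adjusted p of 0.00024), and U4atac (-0.91), snRNA:LU (-1.59) and the 3 U3 genes (-2.12, -2.23 and -2.15) were lower too. The U5 genes snRNA:U5:34A (1.73) and snRNA:U5:14B (1.10) were higher and snRNA:U5:23D (-1.03) was lower. The filter fixed the direction of the first 2, as of any member that reached 1 RPKM in only 1 of the groups compared. Of the 22 hosted snoRNAs tested 2 were higher, snoRNA:Or-aca2 (1.35) and snoRNA:Me18S-C1968 (0.57), and 7 were lower, among them snoRNA:Psi28S-2996 (-1.65). The count of 31 was between 14 and 18 without replicate 2 or 3 of ataxin-7-labelled libraries or without any single non-stop library, beside shares of all genes between 10.9% and 20.9%. It was 32 without replicate 1 of ataxin-7-labelled libraries, beside 81.1% of all genes. It was 52 when all 9 libraries shared the fit, in which all 119 members were tested and 39.0% of all genes were called.

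Genes that act on these RNAs were read from the same fits. Of 32 tested genes for snRNA-bound proteins and their assembly, non-stop had 7 higher and 22 lower, against 0 higher and 6 lower in ataxin-7-labelled libraries, with median log2 fold changes of -0.28 and -0.14. Of 12 genes for snoRNA-bound proteins and their assembly, non-stop had 3 higher and 4 lower, against 4 higher and 1 lower in ataxin-7-labelled libraries. Of 13 subunits of Integrator, the complex that cuts the 3′ ends of snRNA precursors, non-stop had 7 higher and 4 lower, against 4 higher and 1 lower in ataxin-7-labelled libraries. IntS6 and IntS1 are named because of their values: IntS6 rose in both (log2 fold changes of 2.49 and 1.18) and IntS1 fell in both (-1.78 and -1.25). Of 4 factors that act at snRNA promoters, non-stop had 3 higher and 1 lower, against 1 higher and 2 lower in ataxin-7-labelled libraries. These counts covered 32 of 42, 12 of 17, 13 of 14 and 4 of 7 listed genes, the symbols found in the table. In the same order, 90.6%, 58.3%, 84.6% and 100% were called in non-stop, beside 82.7% of all genes. In ataxin-7-labelled libraries the shares were 18.75%, 41.7%, 38.5% and 75%, beside 32.4% of all genes.

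Other RNAs without a poly(A) tail were compared to see whether they moved as the members did. A set of 161 such genes held 86 genes of 5S ribosomal RNA, 37 nuclear and 21 mitochondrial transfer RNA genes, 13 small Cajal body RNAs, 2 genes of 7SL RNA and the RNA parts of RNase P and RNase MRP. It summed to 144, 149 and 171 RPKM in non-stop and to 559, 535 and 709 RPKM in ataxin-7-labelled libraries, against 840.5, 563 and 735 RPKM in oreR. Mitochondrial transfer RNAs made up 90.6% of the mean sum in non-stop, 96.4% in ataxin-7-labelled libraries and 96.6% in oreR. The largest of them, mt:tRNA:Leu-TAG, was at 52.7 RPKM in non-stop and 334 RPKM in ataxin-7-labelled libraries, against 381 RPKM in oreR, while no nuclear transfer RNA or 5S gene had a mean above 0.3 RPKM in any group. The sum therefore describes a few mitochondrial genes. Of the few that passed the filter, 1 of 12 was higher and 6 were lower in non-stop, and 0 of 15 were higher and 1 was lower in ataxin-7-labelled libraries. Over all genes tested, 82.7% and 32.4% were called in the same comparisons. The small Cajal body RNA scaRNA:MeU5-C46, a guide for U5, fell like the hosted snoRNAs, with 0.539, 0.243 and 0.808 RPKM in non-stop and 0.673, 1.91 and 2.06 RPKM in ataxin-7-labelled libraries, against 7.98, 7.19 and 5.73 RPKM in oreR. The RNA of RNase MRP had 1.53, 1.41 and 1.54 RPKM in non-stop, 0.196, 0.297 and 0.279 in ataxin-7-labelled libraries and 0.168, 0.0304 and 0.105 in oreR. Histone genes of the replication type, whose RNA also ends without a poly(A) tail, were higher for 64 and lower for 6 of 111 genes in non-stop against oreR, and 0 of 111 were called in ataxin-7-labelled libraries by limma (20 at an unadjusted p under 0.05 and 0 by limma-voom). Their median log2 fold change was 0.49 in non-stop and 0.24 in ataxin-7-labelled libraries. These histone genes are near-identical copies, mostly in 1 cluster, so the counts are not of independent genes.

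At the threshold of 1 RPKM in 3 libraries, the members just inside were snoRNA:Me28S-U2134b, snoRNA:Psi18S-1820 and snoRNA:Me28S-C788a, with 1.04, 1.05 and 1.07 RPKM in the library that ranked 3 from the top. The genes just outside were snoRNA:Psi18S-1377d, snoRNA:SC35-b and snoRNA:Me28S-C788b, with 0.986, 0.962 and 0.957 RPKM, and their 3 highest values were in oreR for the first and the last of them.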

How the data were processed

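Poly(A) RNA-seq of stage 5 embryos was analysed in 9 libraries, 3 biological replicates each of non-stop, ataxin-7 and oreR. The deposited values are RPKM per gene, computed by the authors. The submitters' processing notes name CASAVA 1.8.2, TopHat2 2.0.13, edgeR 3.14.0 and the dm3 build, and the counting settings for strand and multi-copy genes are not given in the sources used here. RPKM values were whole multiples of the worth of 1 read for all 13809 genes above 0 (100% at a relative tolerance of 1e-11), which gave read counts and depth. Of the members, 115 of 119 had a recovered length within 10% of the annotated span. In the table, 303 genes share identical values with another gene, none of them a pair of members. Symbols, spans and hosts came from the BDGP6 annotation (Ensembl release 115), which held 15002 of 15682 identifiers. Coordinates are those of BDGP6 and were used for no dm3 value.

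Each comparison was fitted with limma 3.58.1 (R 4.3.3; lmFit and eBayes with a trend) on log2(RPKM + 1) over the 6 libraries of 2 groups, for genes with at least 1 RPKM in at least 3 of them, two-sided, with Benjamini-Hochberg adjustment over all genes tested. The fit was tested on simulated data first. Tables were made with pandas 2.3.3, numpy 2.4.6 and scipy 1.17.1 in Python 3.11.15. A floor of 3 reads per library stood for 0 in fold bounds, and floors cover counting error only. The members and lists were chosen with earlier results of these data known. Named were every snRNA gene, the 5 snoRNA genes of each box class with the highest mean RPKM, in each comparison the 4 called snoRNA genes with the largest change in each direction and no overlap between groups, the hosts of these, not, Atxn7 and the genes nearest the threshold. Uhg4, kra, Hrb98DE, Fie, Baldspot, scaRNA:MeU5-C46, mt:tRNA:Leu-TAG, the RNA of RNase MRP, IntS1 and IntS6 are outside this rule where it does not name them as hosts and were added after their values were seen. Alternatives were a pseudocount of 0.1, no filter, a filter at 5 RPKM, quantile and median-of-ratios scaling, limma-voom on recovered reads, all 9 libraries in 1 fit, the replicate number as a block, each library left out, and thresholds of 0.5 and 2 RPKM for membership.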

Additional observations from a re-analysis of the deposited data

Results flagged for a closer look

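A pair of snRNA genes of the minor spliceosome moved in opposite directions in the comparisons with oreR, and the direct test between non-stop and ataxin-7-labelled libraries was past the threshold for both. For snRNA:U12 the log2 fold change was -0.78 in non-stop and 1.68 in ataxin-7-labelled libraries, and the difference between them was -2.46 (adjusted p of 0.00024 by limma). For snRNA:U4atac the values were -0.23 and 0.68, with a difference of -0.91 (adjusted p of 0.00556). Its fall in non-stop was small, to a mean of 1.57 RPKM against 2.02 RPKM in oreR, inside a host at 16 RPKM. The snRNA genes called lower in non-stop against oreR, both of these among them, numbered 3. There were 2 with a pseudocount of 0.1 and 1 with limma-voom, so these calls did not all hold. All genes called were 82.7%, 82.5% and 81.2% in the 3 fits. Non-stop carries another experiment number, so genotype and experiment cannot be told apart in these differences.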

How the results depend on the processing

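The number of members called was within 1.5 times of the value in the report with a pseudocount of 0.1, no filter, quantile or median-of-ratios scaling and limma-voom, in all 3 comparisons. With a filter at 5 RPKM it was 25 in non-stop against oreR, 21 in ataxin-7 against oreR and 13 in non-stop against ataxin-7, because 25, 23 and 15 members were then tested. The shares of all genes called were 83.3%, 35.6% and 37.9% in the same order. With all 9 libraries in 1 fit, 52 were called in non-stop against ataxin-7. Leaving out 1 library gave 28 to 93 in non-stop against oreR, 12 to 83 in ataxin-7 against oreR and 14 to 32 in non-stop against ataxin-7. In the same order, the shares of all genes called ranged from 75.8% to 87.2%, from 2.93% to 51.4% and from 10.9% to 81.1%. A threshold of 0.5 RPKM gave 179 members and one of 2 RPKM gave 69. Quantile normalization put the median of all genes at 0.05 in non-stop against oreR, against 0.17 unscaled. None of the called members changed direction in any alternative. Both values that changed sign belonged to genes that were not called, in ataxin-7 against oreR: snRNA:U6:96Ab became -0.00043 without ataxin-7 replicate 3 (-0.00043 to 0.24 over libraries left out), and snoRNA:Psi28S-2179 became -0.017 without oreR replicate 3 (-0.017 to 0.26). Depth limits non-stop most, where 15 members had 0 reads in all 3 libraries.

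The replicate numbers shared between groups did not pair the samples: the correlation of deviations of same-numbered libraries over 7361 genes lay between -0.236 and 0.434. With the replicate block, 97 members were called in non-stop against oreR, 17 in ataxin-7 against oreR and 24 in non-stop against ataxin-7. The shares of all genes called in these fits were 81.0%, 6.68% and 19.8%.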
